A study of Rattus norvegicus with 20 samples.

Results

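Membrane proteins and secretory granule components are sorted by coats, nexins and tethers. Clathrin, built of heavy chains (*Cltc*) and light chains (*Clta*, *Cltb*), is linked to cargo by adaptor complexes such as AP-1 and AP-2. Adaptor complexes consist of large, medium and small subunits. AP-1 works at the trans-Golgi network and endosomes, AP-2 at the plasma membrane and AP-3 on endosomes. AP-4 and AP-5, which are not counted here as links to clathrin, work on the trans-Golgi network and late endosomes. Sorting nexins (SNX) bind phosphoinositides through a PX domain and shape or load endosomal carriers, and the vacuolar protein sorting (VPS) genes encode retromer, the HOPS, CORVET, GARP and EARP tethers and parts of the ESCRT machinery. In β cells this machinery serves granule maturation and the retrieval of granule membrane after exocytosis. The transcripts of these genes were followed in INS-1 832/13 cells after transfection with siRNA against the mechanosensitive channels *Piezo1* and *Piezo2*. INS-1 832/13 is an insulin-secreting rat line derived from the insulinoma line INS-1 that carries the human proinsulin gene.

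The genes were taken by name and level: protein-coding genes called Ap1 to Ap5 with a subunit letter and number, Clta to Cltc, Snx or Vps with a number, and a mean of at least 10 normalized counts over the 20 libraries. The rule found 90 of the 23487 genes of the table. They were 3 clathrin chains, 26 adaptor subunits (7 of AP-1, 5 of AP-2, 7 of AP-3, 4 of AP-4 and 3 of AP-5), 27 sorting nexins (12 with a BAR domain, 3 with a FERM domain and 12 others) and 34 VPS genes. Of the names, *Snx20*, *Snx22* and a second entry of *Vps37c* missed the minimum, with means of 0, 2.98 and 0, and *Ap1g1*, *Ap5z1*, *Snx3* and *Vps13b* were not analysed here. All 90 passed the filter of the test described below. The name rule also takes in *Vps72*, a subunit of a chromatin remodelling complex.

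The 20 libraries fall into 5 groups of 4: siRNA against *Piezo1* (si-P1), against *Piezo2* (si-P2), against both (si-P1+2), non-targeting siRNA (si-Ctrl), and no transfection (untransfected). The *Piezo1* and *Piezo2* siRNAs were pools used at a final 25 nM, without a statement of whether this was each or both in si-P1+2. Cells were transfected again after 48 h and harvested after a further 48 h. A single pool was used per channel, so what the lost channel did and what else that pool did cannot be told apart. The labels do not say that replicates were separate cultures, and the p-values then rest on a spread between libraries that may be technical only. RNA was measured in bulk, where less transcript per cell cannot be told apart from fewer cells with it. Values are normalized counts, that is reads per gene divided by 1 size factor per library, and differences are log2 fold changes of (count + 1), tested with limma in 1 fit of the 5 groups over 15802 genes and called at an adjusted p under 0.05.

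*Piezo1* was at 105 to 132 normalized counts in si-P1, 112 to 145 in si-P1+2 and 294 to 333 in si-Ctrl (log2 fold change −1.33 in si-P1, adjusted p = 6.29e-07, limma). *Piezo2* was near the floor in every group, at 3.71 to 12.7 in si-P2, 4.76 to 16.3 in si-P1+2 and 8.91 to 14.7 in si-Ctrl. Its log2 fold change was −0.74 in si-P2 (adjusted p = 0.255, limma) and −0.25 in si-P1+2 (adjusted p = 0.796). A loss of its transcript was thus not detectable in either group at this depth. Depth was 16679934 to 56926609 recovered reads per library. All 12 β-cell markers were present, from *Nkx6-1* at 546 or more to *Chga* at 409625 or more, while *Gcg* was at 1232 to 3336 in every library, *Cd68* and *Krt19* were under 21, and *Sst*, *Ppy*, *Hhex*, *Ptprc*, *Cdh5*, *Col1a1*, *Col3a1*, *Cpa1* and *Prss1* were between 0 and 5.71. The β-cell markers summed to 623699 to 779996 in si-P1, 619113 to 704060 in si-P2, 646106 to 724034 in si-P1+2, 560973 to 891859 in si-Ctrl and 566122 to 630137 in untransfected cells, and their part in the results was not tested.

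One control library has to be known before any value is read. Replicate 3 of si-Ctrl scored 72.2 on principal component 1 of 13272 genes (25.9% of variance), and no other library went beyond 18.9 in either direction. It was the lowest of the 20 libraries in 31 of the 90 sorting genes and the highest in 27, and the next library, si-P1 replicate 3, was at an extreme in 14. The median coefficient of variation of the 90 genes was 11.8% among the si-Ctrl libraries, 4.82% without that library, and 4.69% to 5.63% in the other groups. The heavy chain *Cltc* was at 16736 in it, against 25717 to 26038 in the other si-Ctrl libraries, while the light chains *Clta* (13433, against 8215 to 8935) and *Cltb* (8787, against 5787 to 6199) were high. *Vps13a*, a lipid transfer protein of membrane contacts, was at 195 in it and at 1628 to 1706 in the others. The genes called against si-Ctrl only when this library is left out are named below.

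**Figure D1:**
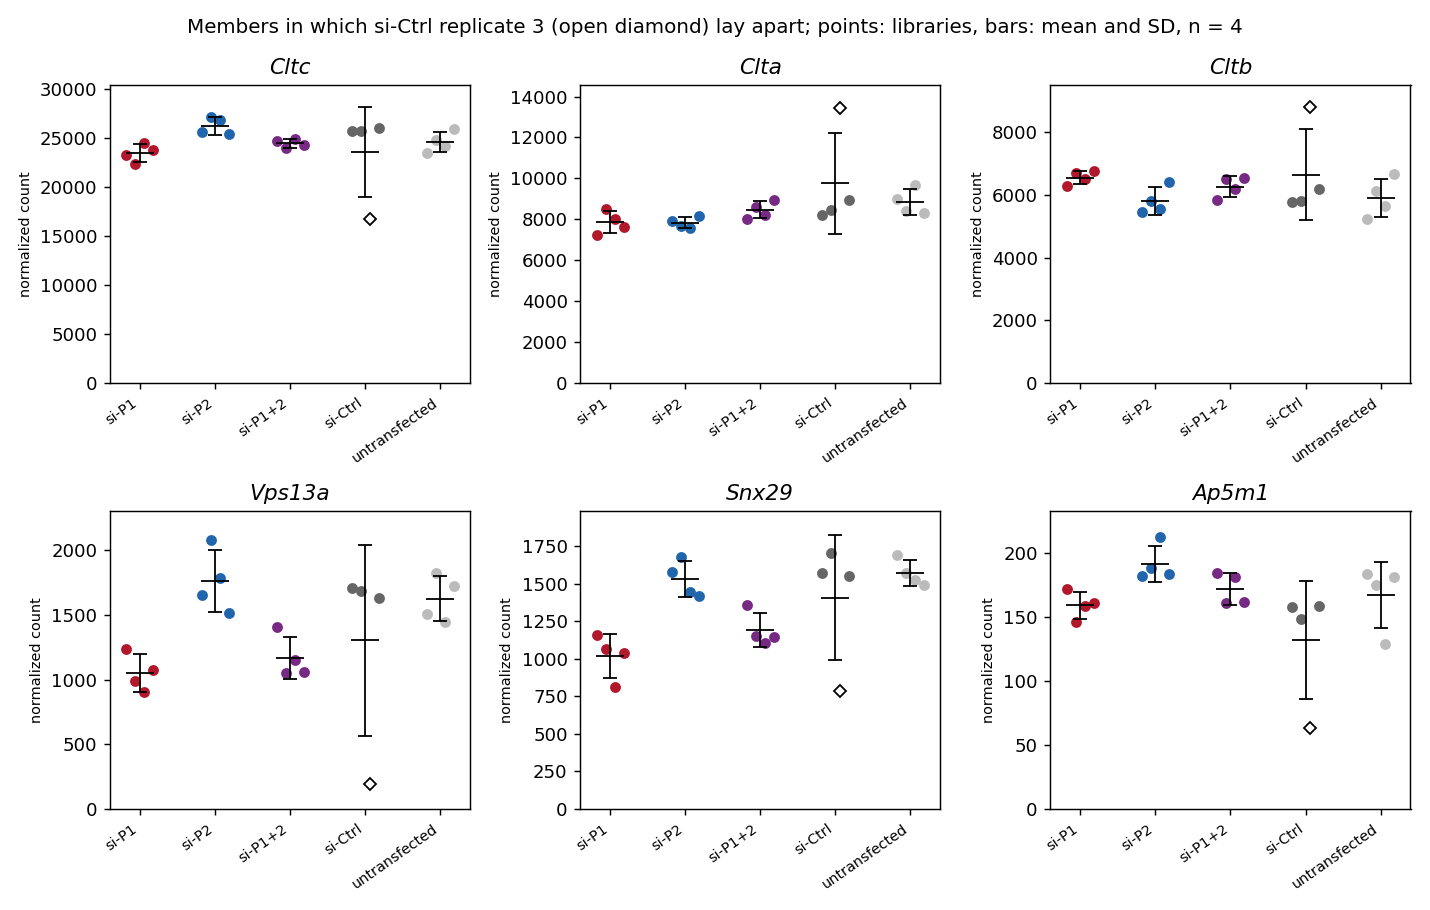
Normalized counts of *Cltc*, *Clta*, *Cltb*, *Vps13a*, *Snx29* and *Ap5m1* in each library (points), with the mean and SD of each group of 4 (bars); the open diamond is si-Ctrl replicate 3. It lies below the other si-Ctrl libraries in *Cltc*, *Vps13a*, *Snx29* and *Ap5m1*, and above them in *Clta* and *Cltb*.

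With the *Piezo1* siRNA, 11 of the 90 genes were lower and 2 higher than in si-Ctrl, with the *Piezo2* siRNA 1 was higher, and with both siRNAs 3 were lower and 1 higher. The share called in si-P1 was 14.4%, against 13.3% of all genes tested, in si-P2 1.11%, against 2.08%, and in si-P1+2 4.44%, against 4.76%. The share of the genes called in si-P1 was thus near that of all genes, but it was split unevenly: 12.2% were lower and 2.22% higher, against 6.28% lower and 7.07% higher over all genes. In si-P2 the higher share was 1.11%, against 0.88%, with 0 lower, against 1.2%. There edgeR also called 1 gene (1.11%, against 2.07% of all genes). DESeq2 called 6 (6.67%, against 6.44% of the genes with an adjusted p). In si-P1+2 the 3 lower and 1 higher genes stand beside 2.35% and 2.41% of all genes. The si-P1 split moved with the scaling, to 4 higher and 6 lower with equal library totals (4.44% and 6.67%, against 8.7% and 4.69% of all genes) and 2 higher and 9 lower with quantile normalization (2.22% and 10% of the 90, against 6.2% and 6.54%). The median log2 fold change of the 90 was 0.010 in si-P1, 0.032 in si-P2 and 0.032 in si-P1+2, beside 0.025, 0.012 and 0.022 over all genes tested. Over the tested genes with a mean of 50 or more it was 0.014, 0.0071 and 0.010. The genes behind the shares of all genes were not matched in level to the 90. The 95% interval of the fold change lay within 0.5 of 0 on the log2 scale for 74, 76 and 78 of the 90 genes in these comparisons, all of which share the si-Ctrl libraries.

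Groups did not overlap for 14 of the 90 genes between si-P1 and si-Ctrl (15.6%, against 14.1% of all genes), 8 between si-P2 and si-Ctrl (8.89%, against 8.61%) and 11 between si-P1+2 and si-Ctrl (12.2%, against 9.08%). Without si-Ctrl replicate 3, 27 genes were called in si-P1, 8 higher and 19 lower, or 30% of the 90, with 24.2% of all genes called, and the 13 of the full fit were among them. By direction these were 8.89% higher and 21.1% lower, against 11.8% and 12.4% of all genes. In si-P1+2 the count was then 17, 5 higher and 12 lower (5.56% and 13.3%), with 13.6% of all genes called, 6.45% higher and 7.14% lower. In si-P2 it was 4, all higher (4.44%), with 2.84% of all genes called and 1.22% higher. The genes gained in si-P1+2 were *Ap2a1*, *Ap3b1*, *Ap3m1*, *Snx4*, *Snx27*, *Snx29*, *Snx30*, *Vps13a* and *Vps26b*, lower, and *Snx15*, *Vps25*, *Vps28* and *Vps37d*, higher. The replicate number as a block, whose standing is given with the processing, raised the si-P1 count to 21 (23.3%, against 21.5% of all genes). With a fit of these 8 libraries alone, 3 genes were called, *Snx31*, *Snx5* and *Vps37c* (3.33%, against 3.75%).

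Summed over the 90 genes, the normalized counts were 229481 to 232180 in si-P1, 240234 to 247063 in si-P2, 234433 to 237352 in si-P1+2, 241897 to 243606 in si-Ctrl and 235926 to 245769 in untransfected cells. The si-P1 sums lay below those of every other library. With equal totals or quantile normalization si-Ctrl replicate 3, at 218992 and 231261, was below the lowest si-P1 library, at 230626 and 232223, while the si-P2 and untransfected libraries stayed above the si-P1 range. The si-P1+2 libraries overlapped si-P1 with equal totals (234266 to 236957, against 230626 to 236698). With quantile normalization they lay above it (235319 to 238283, against 232223 to 235146). Such sums are weighted to long and abundant transcripts and were not tested.

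**Figure D2:**
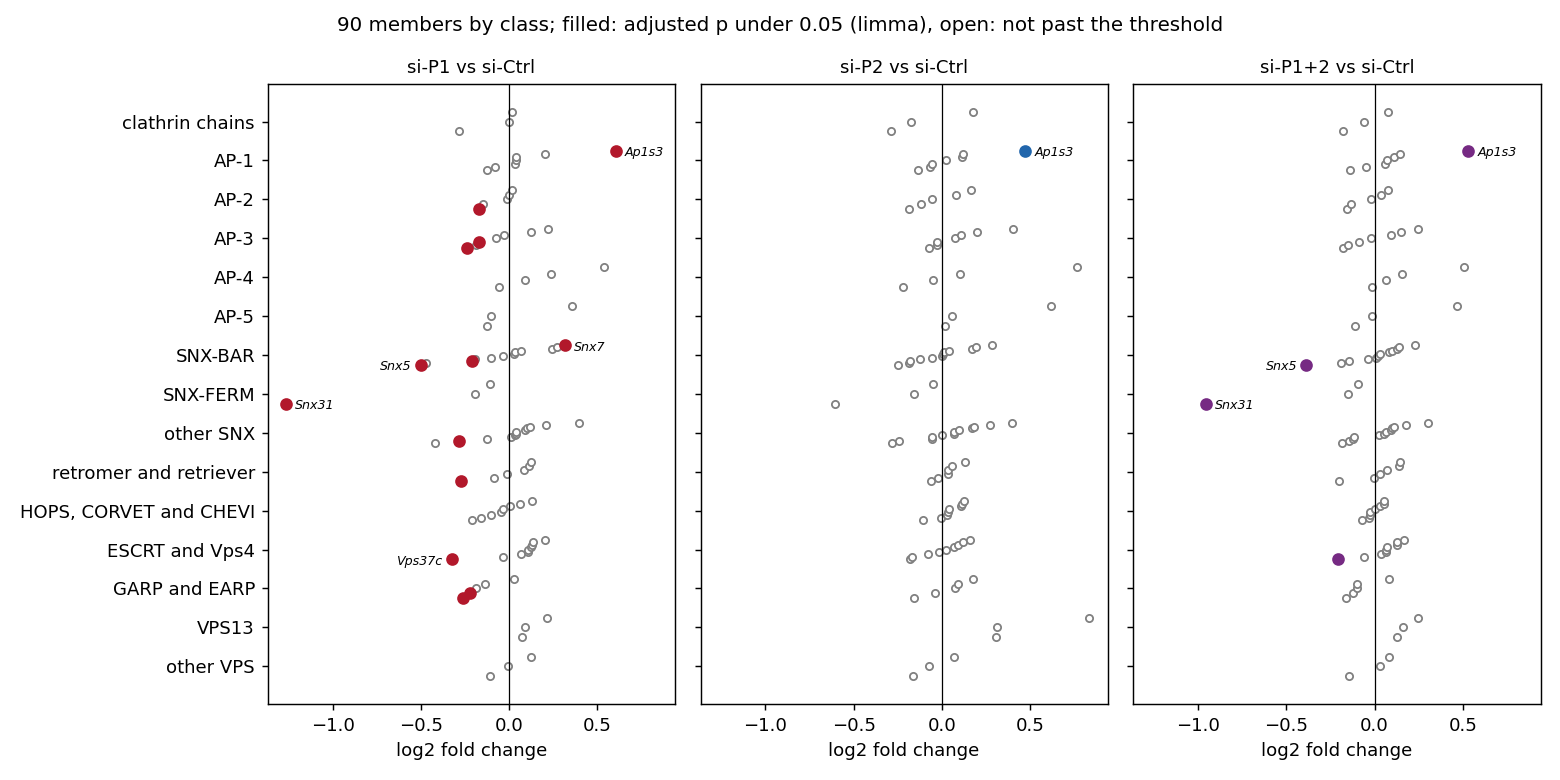
Log2 fold change (x axis) of each of the 90 genes against si-Ctrl, by class (y axis), in si-P1, si-P2 and si-P1+2; filled points passed an adjusted p under 0.05 (limma). In si-P1 11 of the 13 filled points lie left of 0, from *Snx31* at −1.26 to *Ap2a1* at −0.17, and *Ap1s3* lies filled on the right in every panel, joined by *Snx7* in si-P1.

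The clathrin chains themselves did not pass the test. *Cltc* was at 23256, 22366, 24487 and 23749 normalized counts in si-P1, 25591, 27118, 26872 and 25354 in si-P2, 24719.9, 23928, 24902 and 24263 in si-P1+2, 25717, 25750.4, 16736 and 26038 in si-Ctrl and 23495, 24773, 24155 and 25881 in untransfected cells. Its log2 fold change was 0.017 in si-P1 (−0.19 to 0.23, 95% interval), and without si-Ctrl replicate 3 it was −0.14 (adjusted p = 0.0295, limma), the 4 si-P1 libraries lying below the other 3 si-Ctrl libraries. *Clta* had log2 fold changes of −0.29, −0.29 and −0.18 in si-P1, si-P2 and si-P1+2 (adjusted p = 0.0971, 0.168 and 0.450, limma), and *Cltb* of 0.0029, −0.17 and −0.063. With si-Ctrl replicate 3 left out, *Clta* was at −0.12, −0.12 and −0.014 and *Cltb* at 0.14, −0.032 and 0.079, none past the threshold. The light chain counts of the siRNA groups overlapped those of si-Ctrl except for *Clta* in si-P2, at 7589 to 8178 against 8215 to 13433.

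Among the adaptors, *Ap1s3*, which encodes a small subunit of AP-1, rose with each siRNA against si-Ctrl. *Ap1s3* (ENSRNOG00000049873) was at 845, 743, 769 and 777 normalized counts in si-P1, 734, 696, 759.5 and 669 in si-P2 and at 781, 704, 752 and 737 in si-P1+2. It was at 616, 541, 376 and 555 in si-Ctrl and 684, 594, 642 and 698 in untransfected cells. All 12 siRNA libraries were above all 4 si-Ctrl libraries, of which replicate 3 was the lowest, but the untransfected libraries reached into the si-P2 range. These were log2 fold changes of 0.61 in si-P1 (standard error 0.11, adjusted p = 0.000901, limma), 0.47 in si-P2 (adjusted p = 0.0284) and 0.53 in si-P1+2 (adjusted p = 0.00666). With the untransfected libraries as controls they were 0.26, 0.13 and 0.19, and the call was lost in each comparison. The other small subunits of AP-1, *Ap1s1* and *Ap1s2*, had log2 fold changes of −0.079 and 0.21 in si-P1 and did not pass, and the 6 AP-1 genes other than *Ap1s3* ranged from −0.13 to 0.21.

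AP-2 had 1 gene lower of 5 in si-P1. *Ap2a1*, a large subunit of the plasma membrane adaptor, was at 4752, 4899, 4456 and 4578 normalized counts in si-P1 and 5213, 5304, 5269.5 and 5199 in si-Ctrl, which did not overlap (log2 fold change −0.17 with a standard error of 0.045, adjusted p = 0.0164, limma). Untransfected cells, at 4733 to 5050.4, overlapped the si-P1 range, and against them the log2 fold change was −0.068 and did not pass. Its paralog *Ap2a2* had a log2 fold change of −0.00025 in si-P1 (−0.13 to 0.13, 95% interval). The small subunit *Ap2s1* was at 0.019 in si-P1, and at 0.21 with si-Ctrl replicate 3 left out (adjusted p = 0.0367, limma).

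AP-3 had 2 genes lower of 7 in si-P1, its medium subunit *Ap3m1* and its large subunit *Ap3d1*. *Ap3m1* was at 3911, 4019, 3898 and 4019.8 normalized counts in si-P1, 4526, 4760.3, 4543 and 4486 in si-P2, 4142, 4216, 3971 and 4129 in si-P1+2, 4610.1, 4973, 4093 and 5043 in si-Ctrl and 4470.4, 4676, 4577 and 4833 in untransfected cells. Every si-P1 library was below every si-P2, si-Ctrl and untransfected library, the nearest being si-Ctrl replicate 3. The log2 fold change against si-Ctrl was −0.24 (standard error 0.056, adjusted p = 0.00806, limma), and the call was lost with equal totals and with only these groups in the fit. *Ap3d1* was at 8254, 8002, 8120.4 and 7874 in si-P1 and 9229, 9282, 9218 and 8528 in si-Ctrl, without overlap (−0.17, adjusted p = 0.0255, limma), and lost its call in 9 of 17 alternatives, the untransfected controls among them. The neuronal paralog of the medium subunit, *Ap3m2*, had log2 fold changes of 0.22 in si-P1, 0.40 in si-P2 and 0.25 in si-P1+2, none past the threshold (adjusted p = 0.276, 0.102 and 0.324, limma). With si-Ctrl replicate 3 left out, the large subunit *Ap3b1* was lower in si-P1 (−0.25, adjusted p = 0.00397, limma) and si-P1+2 (−0.22, adjusted p = 0.0190), and the small subunit *Ap3s2* was higher in si-P2 (0.28, adjusted p = 0.0287). Summed over the 7 AP-3 genes, counts were 20273 to 20722 in si-P1, 22000 to 23524 in si-P2, 21026 to 21713 in si-P1+2, 22377 to 23117 in si-Ctrl and 22053 to 22490 in untransfected cells, with si-Ctrl replicate 3 at 20356 once libraries were scaled to equal totals.

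None of the 4 AP-4 and 3 AP-5 genes passed against si-Ctrl in the full fit. Their log2 fold changes ran from −0.12 to 0.54 in si-P1 and from −0.22 to 0.77 in si-P2. The upper ends were those of *Ap4e1*, a large subunit of AP-4, which was at 432, 382, 419 and 401 normalized counts in si-P1, 444, 539, 505 and 429 in si-P2 and 401, 387, 108 and 367 in si-Ctrl. Replicate 3 was by far the lowest si-Ctrl library, and without it *Ap4e1* was at 0.085 in si-P1 and 0.31 in si-P2, where it passed (adjusted p = 0.0454, limma). *Ap5m1*, the medium subunit of AP-5, had its lowest count in si-Ctrl replicate 3: it was at 172, 146, 158 and 161 in si-P1, 182, 188, 212 and 183 in si-P2, 184, 160.4, 181 and 161 in si-P1+2 and 157, 148, 63.4 and 159 in si-Ctrl. Its log2 fold change in si-P2 was 0.62 (adjusted p = 0.130, limma), and 0.30 without that library (adjusted p = 0.192). *Ap5b1* and *Ap5s1* had log2 fold changes of −0.10 and −0.12 in si-P1 and 0.022 and 0.057 in si-P2.

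The largest called fold change among the 90 genes was that of a FERM-domain sorting nexin. *Snx31* (ENSRNOG00000025501), a relative of *Snx17* and *Snx27*, was at 161, 144, 120.0 and 132 normalized counts in si-P1, 196, 213, 188 and 295 in si-P2 and at 215, 145, 149 and 185 in si-P1+2. It was at 275, 316, 327 and 438 in si-Ctrl and 275, 360.5, 291 and 492 in untransfected cells. All 8 libraries with the *Piezo1* siRNA were below all 8 control libraries, and the si-P2 libraries were above all si-P1 libraries and, except replicate 4, below all control libraries. *Snx31* thus had a log2 fold change of −1.26 in si-P1 (standard error 0.19, adjusted p = 0.000196, limma), −0.96 in si-P1+2 (adjusted p = 0.00560) and −0.61 in si-P2, which did not pass (adjusted p = 0.109). Its relatives did not pass: *Snx17*, which returns integrins and lipoprotein receptors to the cell surface, had a log2 fold change of −0.19 in si-P1 (−0.36 to −0.017, 95% interval), and *Snx27*, a retromer cargo adaptor, of −0.10. For *Snx17* si-Ctrl replicate 3 was the highest si-Ctrl library, at 3521 normalized counts against 2683 to 2910 in the others, so its fold change leans on that library. Without si-Ctrl replicate 3 *Snx27* was at −0.25 in si-P1 (adjusted p = 0.00167, limma) and −0.24 in si-P1+2 (adjusted p = 0.00438).

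*Snx5* (ENSRNOG00000006077), a BAR-domain nexin that carries the mannose 6-phosphate receptor from endosomes to the trans-Golgi network, also fell in si-P1 and si-P1+2. It was at 5690.5, 6284, 5824 and 6172 normalized counts in si-P1, 6727, 7503, 6712 and 7629.7 in si-P2 and at 6211, 6851, 6221 and 6621 in si-P1+2, and at 7495, 8657, 8728 and 9048 in si-Ctrl and 7092, 8019.7, 7554 and 8129.5 in untransfected cells. Every si-P1 and si-P1+2 library was below every control library, while si-P2 overlapped both control groups. Its log2 fold change was −0.50 in si-P1 (standard error 0.067, adjusted p = 6.33e-05, limma), −0.39 in si-P1+2 (adjusted p = 0.00192) and −0.25 in si-P2 (adjusted p = 0.0622, not past the threshold). Its close paralog *Snx6*, which works in the same coat, was at 1061 to 1202 in si-P1 and 999 to 1142 in si-Ctrl, with a log2 fold change of 0.03 (−0.10 to 0.16, 95% interval).

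The other BAR-domain nexins called in si-P1 were *Snx4*, which sorts the transferrin receptor for recycling, and *Snx7*, which pairs with it. *Snx4* was at 1919, 1969.7, 1895 and 2072 in si-P1 and 2237, 2263, 2052 and 2567 in si-Ctrl (log2 fold change −0.21, adjusted p = 0.0338, limma), with an overlap between si-P1 replicate 4 and si-Ctrl replicate 3. *Snx7* was at 469, 537, 482 and 501 in si-P1 and 352, 421, 425 and 399 in si-Ctrl (0.32, adjusted p = 0.0493), without overlap. Of 17 alternatives, *Snx4* lost its call in 7 and *Snx7* in 12, the most among the 13 genes. The remaining BAR-domain nexins ranged from −0.47 (*Snx33*) to 0.28 (*Snx32*) and did not pass in the full fit. *Snx2*, a partner of *Snx5*, was at −0.10 in si-P1, and at −0.14 with si-Ctrl replicate 3 left out (adjusted p = 0.0403, limma). *Snx30*, the other partner of *Snx4*, was at 649, 542, 528 and 511 in si-P1 and 745, 778, 264 and 679.7 in si-Ctrl, a log2 fold change of −0.034 that became −0.40 once si-Ctrl replicate 3 was left out (adjusted p = 0.00205, limma).

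Of the 12 nexins with neither a BAR nor a FERM domain, *Snx12*, a small PX protein closely related to *Snx3*, was lower in si-P1. *Snx12* (ENSRNOG00000004036) was at 2001, 2037, 1939 and 2075 normalized counts in si-P1, 2549, 2401, 2464 and 2389.7 in si-P2, 2142, 2356, 2191 and 2149 in si-P1+2, 2432, 2407, 2566 and 2374 in si-Ctrl and 2418, 2464, 2436 and 2566 in untransfected cells. The si-P1 libraries were below all 16 others, and the si-P1+2 libraries came next, below every control library. For *Snx12* the log2 fold change was −0.28 in si-P1 (standard error 0.047, adjusted p = 0.000504, limma), −0.15 in si-P1+2 (adjusted p = 0.0867) and 0.004 in si-P2. *Snx29* was at 1159, 1067, 811 and 1036 in si-P1 and 1575, 1708, 789 and 1553 in si-Ctrl, where replicate 3 lay below all si-P1 libraries, and its log2 fold change of −0.42 (adjusted p = 0.124) became −0.67 without that library (adjusted p = 6.67e-05, limma) and −0.64 against untransfected cells (adjusted p = 0.0139). *Snx15* was at 0.014 in si-P1, 0.10 in si-P2 and 0.064 in si-P1+2, and with si-Ctrl replicate 3 left out it was higher in each, at 0.16, 0.24 and 0.21 (adjusted p = 0.0374, 0.0182 and 0.0145, limma).

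**Figure D3:**
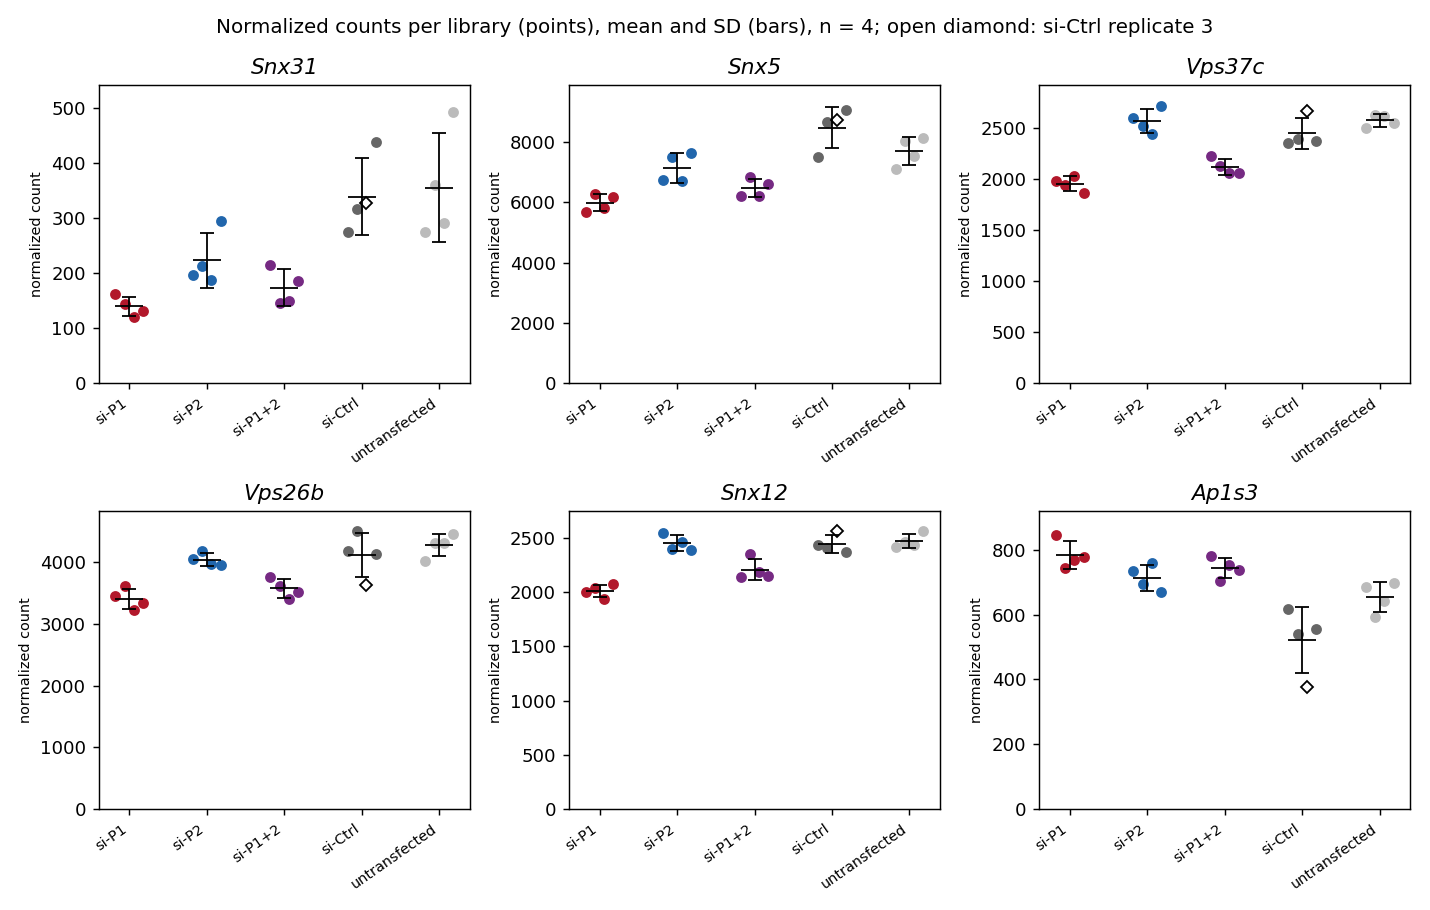
Normalized counts of *Snx31*, *Snx5*, *Vps37c*, *Vps26b*, *Snx12* and *Ap1s3* in each library (points), with the mean and SD of each group of 4 (bars); the open diamond is si-Ctrl replicate 3. In the first 5 genes the si-P1 libraries lie below every si-Ctrl library, and in *Ap1s3* the siRNA libraries lie above every si-Ctrl library.

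Retromer, a trimer of *Vps35*, *Vps29* and 1 of the *Vps26* paralogs, had 1 gene called in si-P1. *Vps26b* (ENSRNOG00000047235) was at 3454, 3609, 3234 and 3342 normalized counts in si-P1, 4061, 4185, 3966 and 3959.8 in si-P2, 3769, 3615, 3413 and 3517 in si-P1+2, 4191, 4501, 3639 and 4142 in si-Ctrl and 4027, 4314, 4318 and 4466 in untransfected cells. The si-P1 libraries were below all si-P2, si-Ctrl and untransfected libraries, narrowly so for si-Ctrl replicate 3. Its log2 fold change was −0.27 in si-P1 (standard error 0.06, adjusted p = 0.00485, limma), −0.20 in si-P1+2 (adjusted p = 0.0637) and −0.023 in si-P2, and with equal totals the si-P1 call was lost. The paralogs did not pass: *Vps26a* had a log2 fold change of 0.12 in si-P1 (−0.17 to 0.41, 95% interval) and *Vps26c*, the retriever subunit, of 0.086 (−0.043 to 0.21). The remaining 3 genes of the class ranged from −0.086 to 0.13. When si-Ctrl replicate 3 was left out, the core subunits passed in opposite directions, *Vps35* at −0.20 (adjusted p = 0.00219, limma) and *Vps29* at 0.20 (adjusted p = 0.00549).

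The tethers GARP and EARP, which receive endosome-derived vesicles, share *Vps51*, *Vps52* and *Vps53*, and 2 of these were lower in si-P1. *Vps52* was at 2006, 1774, 1984 and 1844 normalized counts in si-P1, 2444, 2326, 2453 and 2385 in si-P2, 2077, 1970.1, 2145 and 1958 in si-P1+2, 2255, 2113, 2552 and 2214 in si-Ctrl and 2496, 2227, 2347 and 2156 in untransfected cells (log2 fold change −0.26 in si-P1, standard error 0.064, adjusted p = 0.00930, limma). *Vps53* was at 1244, 1150.2, 1295 and 1282 in si-P1, 1332, 1488, 1440.4 and 1394 in si-P2, 1345, 1379.6, 1279 and 1308 in si-P1+2, 1406, 1405, 1509.9 and 1472 in si-Ctrl and 1307, 1363, 1349.8 and 1421 in untransfected cells (−0.22 in si-P1, adjusted p = 0.00969). For each, the si-P1 libraries were below every control and si-P2 library, and against untransfected cells *Vps52* was at −0.28 and kept its call while *Vps53* was at −0.13 and lost it. The other 3 genes of the class had log2 fold changes of −0.19 to 0.032. Summed over the 5 genes, counts were 10103 to 10863 in si-P1, 11390 to 12009 in si-P2, 10995 to 11412 in si-P1+2, 11293 to 12568 in si-Ctrl and 11441 to 12596 in untransfected cells, and si-P1 stayed below all other groups with equal totals and with quantile normalization.

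The promoters of *Vps52*, *Vps53* and *Vps37c*, 3 of the genes that were lower together, are shown for the short motif they share. The sequences are RefSeq promoters of the rat build GRCr8, running from 250 bases before to 50 bases after the gene start, at chr20:4933409-4933708 on the minus strand, chr10:61536863-61537162 on the minus strand and chr1:216761394-216761693 on the plus strand. Capitals mark CGGAAG, the core bound by ETS-family factors, or its reverse complement CTTCCG, and the genes were picked from those that hold it.
Vps52: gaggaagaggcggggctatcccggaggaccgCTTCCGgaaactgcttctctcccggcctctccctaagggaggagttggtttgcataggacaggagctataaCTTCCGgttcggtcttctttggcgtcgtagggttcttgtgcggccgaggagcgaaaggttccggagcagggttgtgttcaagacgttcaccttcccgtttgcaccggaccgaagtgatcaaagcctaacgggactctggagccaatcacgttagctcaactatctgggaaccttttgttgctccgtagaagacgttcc
Vps53: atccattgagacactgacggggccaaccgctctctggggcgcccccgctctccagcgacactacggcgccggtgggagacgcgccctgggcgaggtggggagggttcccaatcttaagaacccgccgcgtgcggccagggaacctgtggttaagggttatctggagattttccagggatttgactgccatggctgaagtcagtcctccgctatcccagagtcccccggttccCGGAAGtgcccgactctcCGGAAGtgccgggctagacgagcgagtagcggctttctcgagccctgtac
Vps37c: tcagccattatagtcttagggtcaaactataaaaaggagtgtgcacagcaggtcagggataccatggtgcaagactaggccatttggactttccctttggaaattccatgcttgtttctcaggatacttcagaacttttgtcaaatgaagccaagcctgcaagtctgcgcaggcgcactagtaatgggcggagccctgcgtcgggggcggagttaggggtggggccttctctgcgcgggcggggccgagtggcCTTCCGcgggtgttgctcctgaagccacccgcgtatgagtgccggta
The motif occurs at 2 places in *Vps52*, 2 in *Vps53* and 1 in *Vps37c*. Of the 90 genes, 79 had a promoter of that symbol, and CGGAAG was found on either strand in 40 of them (50.6%), against 29.6% of the promoters of 10931 tested symbols and 18.2% of all 27457. Among the genes lower in si-P1 it was in 5 of the 10 with a promoter. CACGTG, the palindrome read by TFEB and related factors, was in 13 of the 79 (16.5%, against 9.38% of tested symbols) and in 0 of the 10 lower genes, and CCAAT was in 28 (35.4%, against 38.6%) and in 6 of the 10. Each motif was searched on both strands (CCAAT also as ATTGG) and none contains another. The tested symbols were not matched in level to the 90 genes, and no difference in share was tested. These are matches of letters in a window and say nothing of binding.

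None of the 8 genes of HOPS, CORVET and CHEVI, which tether late and early endosomes, passed in si-P1, si-P2 or si-P1+2 against si-Ctrl. Their log2 fold changes were −0.21 to 0.13 in si-P1, −0.11 to 0.13 in si-P2 and −0.070 to 0.056 in si-P1+2.

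In the ESCRT machinery, which sorts ubiquitinated cargo into the lumen of endosomes, 1 of 9 genes fell, in si-P1 and in si-P1+2. *Vps37c* (ENSRNOG00000046439), a subunit of ESCRT-I, was at 1985, 1943, 2030.1 and 1859.9 normalized counts in si-P1, 2596, 2516, 2443 and 2715 in si-P2 and at 2229, 2126, 2064 and 2059.9 in si-P1+2. It was at 2358, 2389, 2672 and 2373 in si-Ctrl and 2499, 2628, 2622 and 2548 in untransfected cells. The 4 si-P1 libraries were the lowest of the 20 and the 4 si-P1+2 libraries the next, with no overlap between them or with any other group, and si-Ctrl replicate 3 was the highest of its group. The resulting log2 fold change was −0.32 in si-P1 (standard error 0.053, adjusted p = 0.000385, limma), −0.21 in si-P1+2 (adjusted p = 0.0276) and 0.069 in si-P2 (adjusted p = 0.454). The 3 paralogs that can take its place in ESCRT-I did not pass, *Vps37a* at 0.11, *Vps37b* at 0.071 and *Vps37d* at 0.14 in si-P1. With si-Ctrl replicate 3 left out, *Vps37d* was higher in si-P1 (0.27, adjusted p = 0.00311, limma) and in si-P1+2 (0.21, adjusted p = 0.0330), beside a *Vps37c* still lower in si-P1 (−0.28) and si-P1+2 (−0.16). The ESCRT-II subunit *Vps25* (0.30, adjusted p = 0.000105, limma) and the ESCRT-I subunit *Vps28* (0.29, adjusted p = 0.000643) were then higher in si-P1 as well.

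For the *Vps13* genes, which encode lipid transfer proteins, the values in si-Ctrl hung on 1 library. *Vps13a* was at 1240.4, 990.2, 903 and 1074 normalized counts in si-P1, 1652, 2081, 1788 and 1519 in si-P2, 1405, 1054, 1151 and 1057 in si-P1+2, 1706, 1683, 195 and 1628 in si-Ctrl and 1509, 1820.5, 1448 and 1726 in untransfected cells. The si-P1 and si-P1+2 libraries were below all si-P2 and untransfected libraries and all si-Ctrl libraries but replicate 3. In si-P1 its log2 fold change was 0.094 (standard error 0.45, adjusted p = 0.926, limma) and without that library −0.68 (adjusted p = 0.000381), and in si-P1+2 it was 0.24 with it and −0.53 without (adjusted p = 0.00601). The paralogs *Vps13c* and *Vps13d* had log2 fold changes of 0.22 and 0.077 in si-P1, and −0.14 and −0.082 without that library. None of the 3 passed in the full fit. Of the remaining VPS genes, *Vps45*, which controls endosomal SNARE proteins, was at 0.13 in si-P1, *Vps9d1* at −0.0039 and the chromatin gene *Vps72* at −0.11, none past the threshold.

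Setting si-P1 against si-P2 directly compares the 2 siRNA pools, and no si-Ctrl library enters its fold changes. As a loss of the *Piezo2* transcript was not detectable, it does not set loss of one channel against loss of the other. In si-P1 11 genes were lower and 2 higher than in si-P2, which is 14.4%, against 14.7% of all genes tested. The lower share was 12.2%, against 6.49%, and the higher share 2.22%, against 8.22%, with 5 higher and 10 lower under equal totals (5.56% and 11.1%, against 9.02% and 5.94%) and 4 higher and 10 lower under quantile normalization (4.44% and 11.1%, against 8.52% and 7.15%). The groups did not overlap in 29 genes (32.2%, against 27.1% of all genes). The lower genes were *Snx31* (−0.66, adjusted p = 0.0258, limma), *Snx29* (−0.60), *Vps37c* (−0.39, adjusted p = 5.85e-05), *Vps52* (−0.34), *Snx12* (−0.28), the AP-3 small subunit *Ap3s2* (−0.28), *Snx5* (−0.25), *Vps26b* (−0.25), *Ap3m1* (−0.21), the HOPS and CORVET core subunit *Vps11* (−0.20) and *Vps53* (−0.19). The higher genes were *Ap4s1*, a small subunit of AP-4 (0.46, adjusted p = 0.0331), and *Snx24*, a small PX protein (0.28, adjusted p = 0.00836).

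*Snx29* was at 1159, 1067, 811 and 1036 normalized counts in si-P1 and 1580.5, 1679.8, 1443 and 1422 in si-P2, so that all si-P2 libraries were above all si-P1 libraries (standard error 0.17, adjusted p = 0.0241, limma). *Ap3s2* was at 1753, 1536, 1503 and 1607 in si-P1 and 1957, 1907, 1853 and 2024 in si-P2 (adjusted p = 0.0250), while its paralog *Ap3s1* differed by 0.018 (−0.12 to 0.16, 95% interval). *Snx24* was at 443, 444, 505 and 455 in si-P1 and 391, 378, 379 and 369 in si-P2, and *Ap4s1* at 215, 196, 251 and 194 in si-P1 and 189, 135, 123 and 182 in si-P2, again without overlap. *Vps37c*, *Vps52*, *Vps26b*, *Snx12* and *Snx24* kept their calls in all 17 alternatives, and *Ap4s1* lost its call in 6. *Ap1s3*, the gene raised by each siRNA against si-Ctrl, differed by 0.13 (−0.10 to 0.36, 95% interval, adjusted p = 0.468, limma). With the replicate number as a block 26 genes were called, 8 higher and 18 lower (28.9%, against 23.6% of all genes). The shares were 8.89% higher and 20% lower, against 13% and 10.5% of all genes. The spread of si-Ctrl replicate 3 enters the shared error, and without that library in the fit 31 genes were called, 9 higher and 22 lower (34.4%, against 29.3%), with unaltered fold changes, *Vps13a* (−0.74), *Cltc* (−0.16) and *Cltb* (0.18) among them. Here 10% were higher and 24.4% lower, against 14.6% and 14.8% of all genes.

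**Figure D4:**
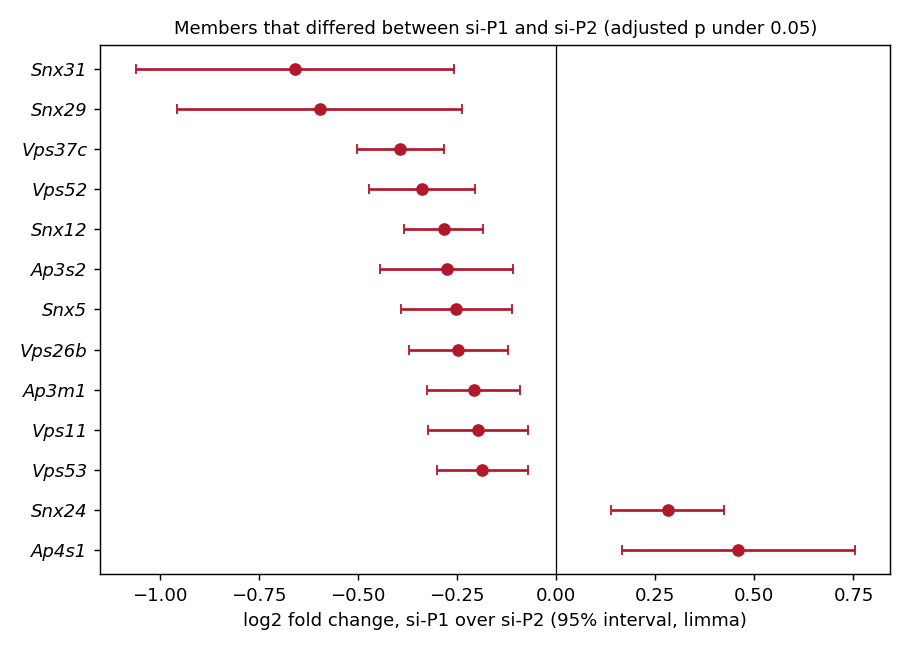
Log2 fold change of si-P1 over si-P2 (x axis, points) with its 95% interval from limma (bars) for the 13 genes (y axis) past an adjusted p of 0.05. The 11 genes on the left run from *Snx31* at −0.66 to *Vps53* at −0.19, and *Snx24* and *Ap4s1* lie on the right at 0.28 and 0.46.

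Adding the *Piezo2* siRNA to the *Piezo1* siRNA gave no call. Between si-P1+2 and si-P1, 0 of the 90 genes passed with limma, edgeR or DESeq2 (0.0443% of all genes by limma), 5 had an unadjusted p under 0.05, and the lowest adjusted p was 0.568. Groups did not overlap in 6 genes (6.67%, against 5.86%), *Vps37c* and *Snx12* among them. *Vps37c* differed by 0.12 (0.0065 to 0.23, 95% interval), *Snx12* by 0.13 (0.035 to 0.23), *Snx31* by 0.30 (−0.10 to 0.71) and *Snx5* by 0.11 (−0.029 to 0.25). The interval lay within 0.5 of 0 for 80 of the 90 genes.

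Transfection with the non-targeting siRNA likewise gave no call. Between si-Ctrl and untransfected cells, 0 of the 90 genes passed with limma, edgeR or DESeq2 (0.0886% of all genes by limma, 0.0696% higher and 0.019% lower), with or without si-Ctrl replicate 3, and 6 had an unadjusted p under 0.05. Groups did not overlap in 2 genes (2.22%, against 4.08%), of which *Ap2a1* had a log2 fold change of 0.10. *Ap1s3* had the lowest adjusted p of the 90 (−0.35, −0.58 to −0.12 as 95% interval, adjusted p = 0.314, limma), and *Snx31* was at −0.048. With the untransfected libraries as controls in place of si-Ctrl, 14 of the 90 genes were called in si-P1, 5 higher and 9 lower (15.6%, against 18.1% of all genes), 8 of them among the 13 called against si-Ctrl. The higher share was 5.56%, against 10.4% of all genes, and the lower share 10%, against 7.67%. In si-P1+2 6 genes were then called (6.67%, against 8.21%), 3 of them among the 4, and in si-P2 the single call, *Ap1s3*, was lost.

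A list of 82 other genes of endocytosis and endosomal sorting (coat partners, ESCRT, WASH, endosome identity and sorted receptors) was set beside these genes. Of 76 tested, 3 were higher and 5 lower in si-P1, 1 higher and 1 lower in si-P2, and 1 higher and 2 lower in si-P1+2. These are 10.5%, 2.63% and 3.95% of the list, against 13.3%, 2.08% and 4.76% of all genes, and its median log2 fold change in si-P1 was −0.0048. In si-P1 *Fcho2*, which nucleates clathrin-coated pits, was at 1979.5, 1881, 2068 and 2065 normalized counts, against 1589, 1487, 738 and 1583 in si-Ctrl (0.63, adjusted p = 0.0119, limma). The transferrin receptor *Tfrc*, the classical cargo of AP-2, was at 31480.4, 27480.3, 29729.6 and 30665 in si-P1, against 25993, 23184, 16395 and 24950.2 in si-Ctrl and 20322 to 20783 in untransfected cells (0.42, adjusted p = 0.00669), and in si-P1+2 it was higher by 0.35 (adjusted p = 0.0471). For both genes the si-P1 libraries lay above every si-Ctrl library. So did the si-P2 libraries, at 1595 to 1658 for *Fcho2* and 26223 to 27250 for *Tfrc*. Neither passed in si-P2 (0.34 and 0.27, adjusted p = 0.243 and 0.155, limma). In each gene si-Ctrl replicate 3 was the lowest si-Ctrl library. With it left out *Fcho2* was at 0.36 in si-P1 (adjusted p = 5.85e-05, limma), and *Tfrc* at 0.27 in si-P1 (adjusted p = 0.000615) and 0.20 in si-P1+2 (adjusted p = 0.0128). In si-P2 they were then at 0.068 and 0.12 and did not pass. The dynamin *Dnm3* was higher (0.69), and the epsin *Epn1* (−0.40), *Necap2* (−0.30) and the PIKfyve scaffold *Vac14* (−0.27) were lower in si-P1.

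In si-P2 the membrane-bending protein *Bin1* was at 2198, 2092, 2139 and 1967 normalized counts, against 2978, 2751, 4206 and 2736 in si-Ctrl and 2574 to 2740.0 in untransfected cells (−0.57, adjusted p = 0.00357, limma). All si-P2 libraries were below all control libraries, and in si-P1 the gene was at 2699.6 to 2853, which overlaps si-Ctrl. In si-P1+2 *Bin1* was at 2401, 2383, 2409.7 and 2216 (−0.41, adjusted p = 0.0153), below every control library. With si-Ctrl replicate 3 left out *Bin1* was at −0.43 in si-P2 and −0.26 in si-P1+2 and kept both calls. *Tgfbrap1*, a CORVET subunit, was higher in si-P2 (0.28, adjusted p = 0.0319). Without si-Ctrl replicate 3, 6 of the 76 were higher and 9 lower in si-P1, 1 higher and 1 lower in si-P2, and 6 higher and 5 lower in si-P1+2. These are 19.7%, 2.63% and 14.5% of the list, against 24.2%, 2.84% and 13.6% of all genes. *Necap2* and *Hip1r* were no longer among the lower genes of si-P1. *Hip1r*, called lower there in the full fit (−0.22), was at −0.16 without that library (adjusted p = 0.0862, limma). *Tfrc* was then also higher in si-Ctrl than in untransfected cells, the single such call of the list.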

How the data were processed

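Messenger RNA of 20 libraries (TruSeq stranded, Illumina NextSeq) was measured. According to the submitters' processing notes and the methods, the authors checked reads with FastQC 0.11.8 and MultiQC 1.7, quantified them with Salmon 0.14.0 on Rnor_6.0 and divided gene counts by DESeq2 1.25.10 size factors. The step from transcripts to genes is not given in the sources used here. The deposited signal values are these normalized counts, 1 column per library, and 0 columns lacked a sample. In every library 100% of values were whole multiples of 1 read (tolerance 0.001), so reads were recovered for count tests.

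Genes above 0 in at least 50% of libraries (15802) were fitted in R 4.3.3 with limma 3.58.1 on log2(count + 1), all 20 libraries in 1 fit of 5 group means, variance trend, 15 residual degrees of freedom, two-sided tests and Benjamini-Hochberg adjustment over all genes. The pseudocount understates changes of low genes. On recovered reads, edgeR 4.0.16 called 2027, 327 and 758 genes and DESeq2 1.42.0 called 2473, 820 and 1200 for the si-P1, the si-P2 and the si-P1+2 libraries against si-Ctrl. Other alternatives were a pseudocount of 0.5, no filter, only the groups compared, equal totals, quantile normalization, untransfected controls, the replicate block and leaving out each replicate. Scripts were tested on simulated data.

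Genes and lists were chosen with earlier results of these data known. Named were all genes called, classes of 3 or fewer, paralogs of called genes and up to 6 called genes of the further list. Genes named because a call came or went without si-Ctrl replicate 3 were chosen after their values were seen. The labels give replicate numbers no meaning across groups. Block counts are printed for every comparison as an alternative, whatever these correlations were. Over 13272 genes, libraries of the same number deviated from their group means with correlations of 0.168 to 0.314 for si-P1 with si-P2. For si-P1 with si-Ctrl these were 0.0613 to 0.368, and 0.111 to 0.559 over the 11698 genes of a mean of 50 or more, so that the reading depends on the minimum. How the block is shown was decided after its calls had been seen. Gene symbols were matched to RefSeq promoters of GRCr8.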

Additional observations from a re-analysis of the deposited data

Results flagged for a closer look

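The 44 genes examined here were those called, those in classes of 3 or fewer and the paralogs of called genes. Other genes named in the text, such as *Ap4e1*, *Vps25* and *Vps28*, are outside the 44 and not listed below. Of 220 groups of 4 libraries over the 44 genes, 16 held a library whose gap to the nearest other exceeded Dixon's critical value, where chance gives about 1 in 20. Over all 450 groups of the 90 genes there were 36, of which 19 were si-Ctrl replicate 3.

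In si-Ctrl replicate 3 the heavy chain *Cltc* was low at 16736 normalized counts, and the light chains *Clta* at 13433 and *Cltb* at 8787 were high. Also low there were *Vps13a* at 195 (1628 to 1706 in the other si-Ctrl libraries), *Snx29* at 789 (1553 to 1708), *Snx27* at 2748 (3992 to 4139), *Snx6* at 999 (1125 to 1142) and *Ap5m1* at 63.4 (148 to 159). High there were *Ap1s1* at 6663 (4711 to 4842), *Vps37c* at 2672 (2358 to 2389), *Vps37d* at 1800.5 (1205 to 1246) and *Vps72* at 2193 (1544 to 1611). The same library held a median of 442 normalized counts over the tested genes, against 517 to 527 in the other 19, at 27665797 recovered reads.

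Outside that library, *Ap3d1* was low in si-Ctrl replicate 4 at 8528 (9218 to 9282), *Ap5m1* in untransfected replicate 3 at 129 (174 to 183) and *Snx27* in si-P1 replicate 3 at 3106 (3529 to 3589), and *Snx29* was high in si-P1+2 replicate 1 at 1357 (1109 to 1151).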

How the results depend on the processing

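No called fold change turned its direction in any alternative. The number of the 90 genes called did move. In si-P1 against si-Ctrl (13) it was 21 with the replicate block (23.3%, against 21.5% of all genes) and 3 with only these groups in the fit (3.33%, against 3.75%). With single libraries left out it was 9 to 27. The 9 were without si-P1 replicate 3 (10%, against 9.02%) and the 27 without si-Ctrl replicate 3 (30%, against 24.2%). In si-P2 (1) it was 8 with the block (8.89%, against 8.65% of all genes) and 6 with DESeq2 (6.67%, against 6.44%). It was 0 with only these groups (0.0316% of all genes) and 0 with untransfected controls (1.05%). With single libraries left out it was 0 to 4. The 4 (4.44%) were without si-Ctrl replicate 1 (4.84% of all genes) or 3 (2.84%), and the 0 without si-P2 replicate 1, 2 or 3 (0.633% to 1.14%). In si-P1+2 (4) it was 10 with the block (11.1%, against 11.3% of all genes), 0 with only these groups (0.437% of all genes) and 9 with DESeq2 (10%, against 8.79%). With single libraries left out it was 3 to 17. The 3 were without si-P1+2 replicate 2, 3 or 4 (3.33%, against 2.75% to 3.17%) and the 17 without si-Ctrl replicate 3 (18.9%, against 13.6%). Between si-P1 and si-P2 (13) it was 26 with the block (28.9%, against 23.6% of all genes) and 27 with only these groups (30%, against 25.8%). With DESeq2 it was 21, 6 higher and 15 lower (23.3%, against 20.2%). With single libraries left out it was 6 to 13, 6 (6.67%) without si-P1 replicate 3 (9.85% of all genes) or si-P2 replicate 2 (10.7%). It was 31 without si-Ctrl replicate 3 in the fit (34.4%, against 29.3%), which was tried after seeing the data. The cause was not tested. The counts of 0 between si-Ctrl and untransfected cells and between si-P1+2 and si-P1 stayed 0 in all alternatives. With the block 1.31% and 0.589% of all genes were called in these.

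Correlations of same-numbered libraries were −0.0915 to 0.277 for si-P2 with si-Ctrl and −0.0084 to 0.316 for si-P1+2 with si-Ctrl. The lowest in each was that of replicate 3, which holds si-Ctrl replicate 3. The rest were 0.205 to 0.277 and 0.0646 to 0.316. For si-Ctrl with untransfected cells they were 0.132 to 0.320, and for si-P1+2 with si-P1 0.186 to 0.330. These values do not settle whether the numbers pair the libraries. In si-P1, *Snx31*, *Snx5* and *Vps37c* kept their calls in 17 of 17 alternatives, *Snx12* and *Vps52* in 16, *Ap1s3*, *Ap3m1*, *Vps53* and *Vps26b* in 15, *Ap2a1* in 12, *Snx4* in 10, *Ap3d1* in 8 and *Snx7* in 5. The median standard error over the 90 genes was 0.082 on the log2 scale, and a difference of that size was not detectable with 4 libraries a group. Reads shared by similar paralogs may be split unevenly in the counting.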
